A study of Arachis hypogaea with 15 samples.

Results

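The 8 genes described here encode homeobox proteins of the KNOX family whose deposited product names are knotted-1-like 1, knotted-1-like 2 and knotted-1-like 6. They were selected from the 59878 genes of the expression table by those product names, with knotted-1-like 10 also searched for and no gene found under it. None of the 8 genes was listed 2 times at the same position. Of the 8 genes, 4 carry the name knotted-1-like 1, 2 carry knotted-1-like 2 and 2 carry knotted-1-like 6 isoform X2.

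RNA sequencing was used to follow transcript levels in peanut (Arachis hypogaea), a legume with compound leaves and a tetraploid genome made of an A and a B subgenome. All plants were 40 days old and were raised in soil in a chamber at 22 °C and 70% relative humidity under 16 h of light. The 5 groups of 3 libraries each were the wild-type shoot apex, the wild-type petiole, the wild-type terminal leaflet, the wild-type lateral leaflet and, from a mutant with pentafoliate defects, the shoot apex. The labels name no gene and no background line for the mutation, the petiole and leaflets were sampled from wild type, and the design text calls the libraries biological replicates without saying which plants they came from. The p-values therefore measure the spread between these libraries.

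KNOX proteins are transcription factors of the TALE homeodomain class that act as heterodimers with BELL homeodomain proteins. Class I members, to which the genes described here belong by name, keep cells of the shoot meristem undifferentiated, raise cytokinin levels and lower gibberellin levels there, and in many species with compound leaves are switched on again in young leaf primordia. Class II members act in differentiating organs. The product names follow the Arabidopsis proteins KNAT1, KNAT2 and KNAT6. In Arabidopsis KNAT1 (BREVIPEDICELLUS) is known for its part in internode and pedicel growth, and KNAT2 and KNAT6 act in the meristem and, for KNAT6, at organ boundaries.

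Coordinates are those of the table, whose gene identifiers are of the first peanut Tifrunner assembly. The knotted-1-like 2 genes form an A and B pair at corresponding positions of chromosomes 3 and 13: arahy.EDBH1H.2 (chromosome 3, 132742209 to 132750120, minus strand) and arahy.F9ETHR.1 (chromosome 13, 135244610 to 135252584, minus strand). Their longest transcripts are of 1664 and 1680 bases. The knotted-1-like 6 genes form a pair on chromosomes 5 and 15: arahy.V2YWYI.1 (chromosome 5, 33832411 to 33842851, plus strand) and arahy.B0V7RI.1 (chromosome 15, 23690987 to 23701473, minus strand), with transcripts of 1959 and 1951 bases. The knotted-1-like 1 genes are less uniform. The longest, arahy.U5Q1QL.1 (chromosome 9, 25202366 to 25211803, plus strand), has a transcript of 1477 bases, whereas arahy.ZTJV1A.1 on its partner chromosome (chromosome 19, 31954769 to 31956548, plus strand) is a model of 420 bases. The gene arahy.S28ZE3.1 (chromosome 15, 139436660 to 139441976, minus strand) has 722 bases and no knotted-1-like 1 partner on chromosome 5. The shortest, arahy.PY7HXB.1 (chromosome 18, 87676471 to 87676707, plus strand), has 237 bases and the weakest protein match, with an E value of 1.6e-13. The table's own homeobox family tag is present on 5 of the 8 genes and absent from the 3 shortest knotted-1-like 1 models.

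The 15 libraries were of like depth, with 16.95 to 18.05 M fragments as judged by the steps between their low values. At this depth 1 fragment was worth 0.0292 to 0.241 FPKM (fragments per kilobase of transcript, scaled to the library's total), depending on the gene's length. The 6 genes that were present in both apices were each covered there by an estimated 78.4 to 492.4 fragments per library. Between replicate libraries, Pearson's r over genes (which are not independent of each other) was 0.988 to 0.99. As a check of the tissue labels, the class I KNOX products SBH1 and LET6 (6 genes) had wild-type apex means of 8.78 to 28.6 FPKM, and their means in the petiole and the leaflets did not exceed 0.07 FPKM. The products named WUSCHEL, which mark the stem cell organising centre of the meristem, were near the limit of detection, with no library above 0.27 FPKM. The whole list of shoot apex markers (23 listed) separated the tissues less clearly. It summed to 426.9 to 433.1 FPKM in the wild-type apex and 333.3 to 356.8 in the petiole. The terminal leaflets gave 346.1 to 380.6 and the lateral leaflets 351.4 to 364.4. Of its 17 tested genes 7 were higher and 3 lower in the apex than in the petiole. Against the leaflets 8 were higher and 4 lower (all genes tested: 27.5% and 27.2%, then 35.3% and 44.3%). Vascular markers, listed for the petiole (107 products), summed to 409.4 to 411.3 FPKM there and to 433.2 to 438.7 in the wild-type apex. The terminal and lateral leaflets gave 226.3 to 231.2 and 225.7 to 230.9. Of the 59 tested vascular genes 41 were lower and 5 higher in the apex than in the petiole. By its sum, this list did not set the petiole above the apex. Leaf blade genes for light harvesting and Rubisco (54 listed) summed to 32563 to 35151 FPKM in terminal leaflets and 27688 to 28434 in lateral leaflets, against 7188 to 7579 in the wild-type apex and 12156 to 12216 in the petiole.

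The levels fell into a plain pattern by product name. All 3 product names were present in the wild-type apex at similar summed levels, in the petiole only knotted-1-like 1 stood above 1 FPKM, and the leaflets were near 0 for all of them. Summed over its 4 genes, knotted-1-like 1 stood at 13.8 ± 0.551 FPKM in the wild-type apex, 14.99 ± 0.304 in the mutant apex and 26.7 ± 0.915 in the petiole (SD, n = 3 each). Summed knotted-1-like 2 stood at 12.3 ± 1.11 FPKM in the wild-type apex, 17.3 ± 1.02 in the mutant apex and 0.0633 ± 0.0404 in the petiole. Summed knotted-1-like 6 stood at 12.5 ± 0.915, 19.7 ± 1.02 and 0.323 ± 0.0569 FPKM in the same 3 groups. In bulk tissue, fewer cells that express a gene and less RNA of it per cell cannot be told apart.

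**Figure D1:**
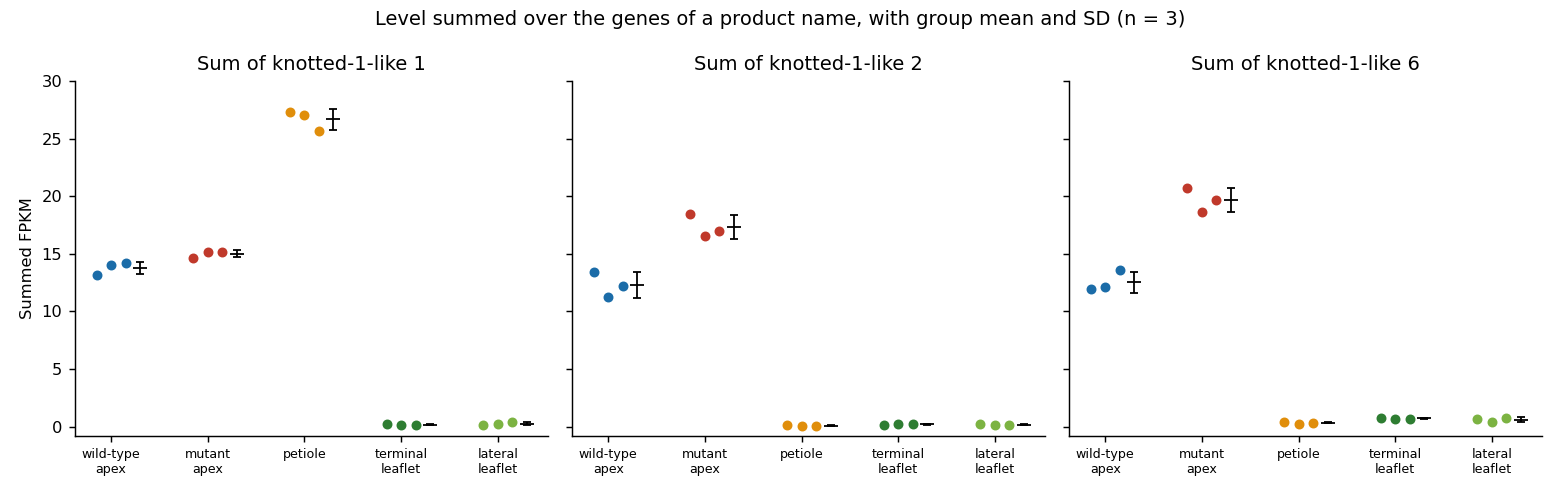
FPKM summed over the genes of each product name (vertical axis), per library, for the 5 groups. Points are libraries and the black marks are the group mean and SD (n = 3). The knotted-1-like 1 sum is highest in the petiole (25.63 to 27.34), where the sums of the other product names lie at or below 0.37.

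The petiole level of knotted-1-like 1 came mainly from 1 gene. For arahy.U5Q1QL.1 the petiole libraries read 19.29, 19.01 and 17.05 FPKM, the wild-type apex libraries 5.7, 5.62 and 6.81, and the mutant apex libraries 6.23, 8.67 and 7.48. Its terminal leaflets read 0.07, 0.1 and 0.1 FPKM and its lateral leaflets 0.04, 0.14 and 0.11. Every petiole library lay above every apex library, every apex library lay above every leaflet library, and the apices of wild type and mutant overlapped. In the order of its levels, the neighbours that could not be separated by their ranges were the 2 apices and the 2 leaflets. The leaflet values stand for an estimated 1.0 to 3.6 fragments per library.

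The other well-measured knotted-1-like 1 gene had another distribution. For arahy.S28ZE3.1 the petiole libraries read 6.96, 8.04 and 6.99 FPKM, the wild-type apex libraries 6.39, 8.39 and 7.35, and the mutant apex libraries 7.18, 6.52 and 6.61. Its terminal leaflets read 0.16, 0 and 0 FPKM and its lateral leaflets 0.08, 0.08 and 0.31. The petiole and both apices overlapped, and the leaflets were far below all of them. The difference between arahy.U5Q1QL.1 and arahy.S28ZE3.1, taken within each library on the log2(FPKM + 1) scale, was 1.15 to 1.35 in the petiole and -0.50 to -0.10 in the wild-type apex. These ranges did not overlap, and the difference of 1.47 between the tissues had a two-sided exact permutation p of 0.1, the smallest that 3 against 3 libraries allow.

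The 2 shortest models added little. The gene arahy.ZTJV1A.1 read 1.09, 0 and 1.59 FPKM in the petiole, 0.84, 0 and 0 in the wild-type apex and 1.23, 0 and 1.05 in the mutant apex. It was at most 0.04 FPKM in the leaflets, a value below that of 1 whole fragment (0.136). Zeros stood beside values over 1 within the same group, so its groups could not be ordered. The gene arahy.PY7HXB.1 was listed at 0.21 FPKM in 1 wild-type apex library and at 0 in the other 14 libraries. It is the only gene of the 8 that did not reach 1 FPKM in 3 libraries, the condition for testing.

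**Figure D2:**
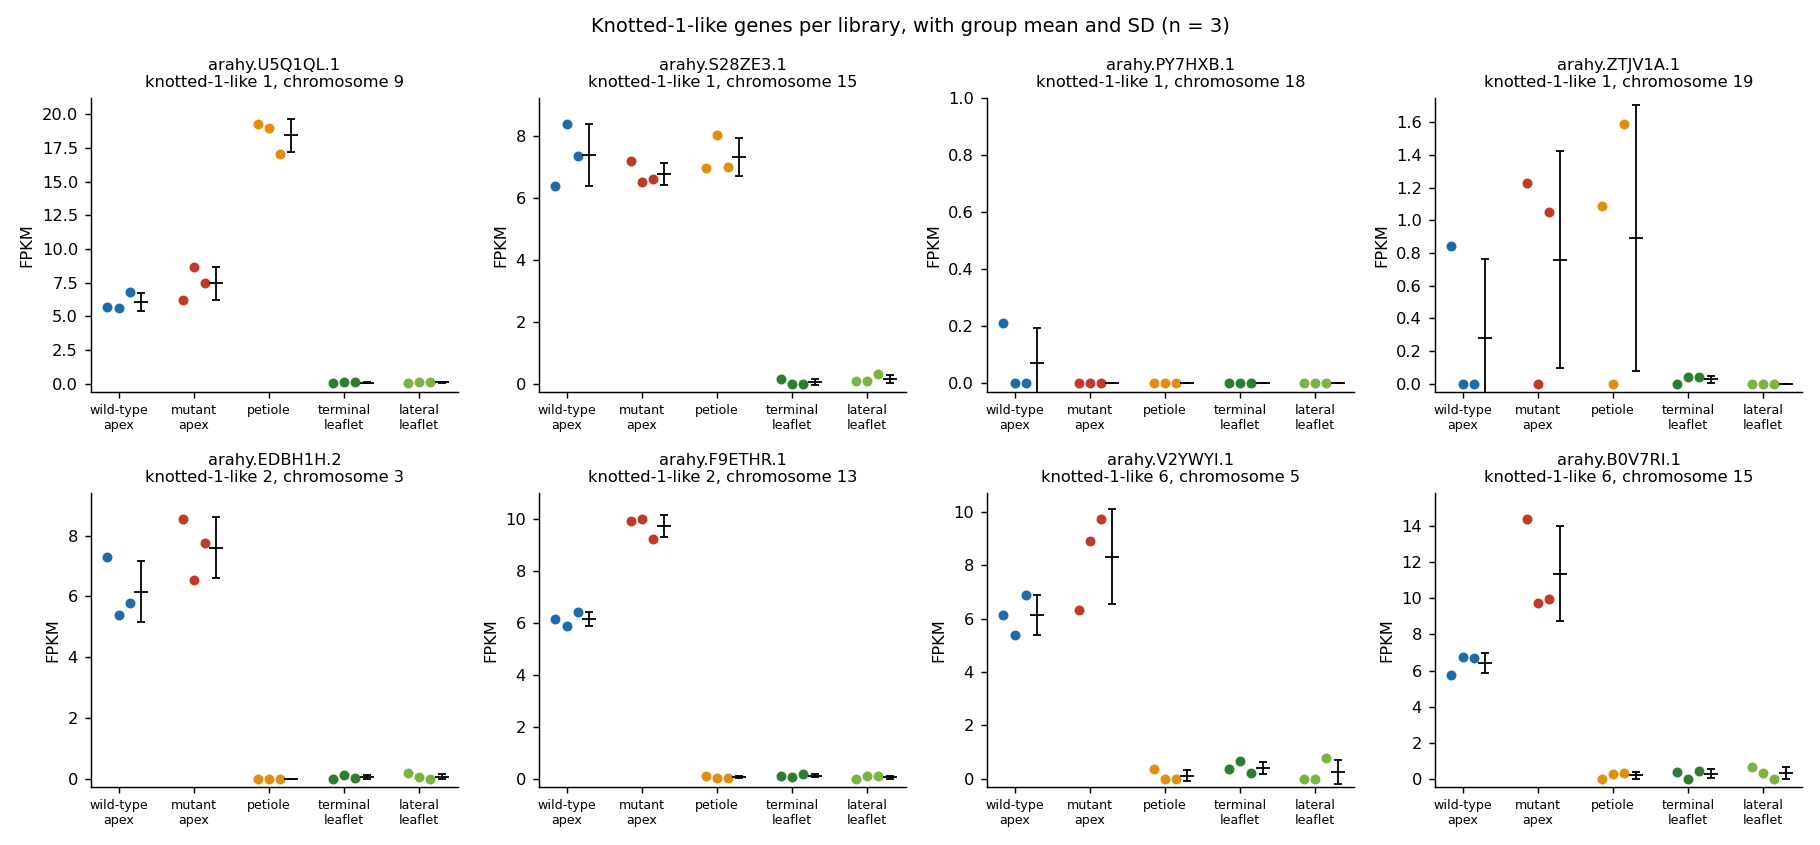
FPKM of each of the 8 genes (vertical axes differ between panels) per library in the 5 groups. Points are libraries and the black marks are the group mean and SD (n = 3). Of the knotted-1-like 1 genes, arahy.U5Q1QL.1 is highest in the petiole (17.05 to 19.29) and arahy.S28ZE3.1 is level between petiole and apices, while the knotted-1-like 2 and 6 genes are at or near 0 outside the apices.

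The knotted-1-like 2 genes were found in the apices and hardly elsewhere. For arahy.EDBH1H.2 the wild-type apex libraries read 7.3, 5.39 and 5.79 FPKM, the mutant apex libraries 8.54, 6.54 and 7.74, and all 3 petiole libraries 0. For arahy.F9ETHR.1 the wild-type apex libraries read 6.16, 5.86 and 6.42 FPKM, the mutant apex libraries 9.92, 9.98 and 9.21, and the petiole libraries 0.11, 0.04 and 0.04. In the leaflets no library of either gene exceeded 0.18 FPKM. The apices of wild type and mutant overlapped for the chromosome 3 copy and did not overlap for the chromosome 13 copy. The ranges of petiole, terminal leaflet and lateral leaflet overlapped for both genes.

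The knotted-1-like 6 genes were likewise highest in the apices. For arahy.V2YWYI.1 the wild-type apex libraries read 6.15, 5.38 and 6.87 FPKM, the mutant apex libraries 6.32, 8.9 and 9.72, and the petiole libraries 0.37, 0 and 0. For arahy.B0V7RI.1 the wild-type apex libraries read 5.75, 6.73 and 6.71 FPKM, the mutant apex libraries 14.38, 9.76 and 9.95, and the petiole libraries 0, 0.26 and 0.34. The leaflet libraries of the pair lay between 0 and 0.77 FPKM. Wild-type and mutant apices overlapped for the chromosome 5 copy and stood apart for the chromosome 15 copy, whose first mutant library was well above the other 2.

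The first comparison, wild-type apex against petiole, separated the product names in direction. Each gene was tested with limma on log2(FPKM + 1), with p-values adjusted by the Benjamini-Hochberg method over the 39031 genes that reached 1 FPKM in at least 3 libraries and a gene called at an adjusted p under 0.05. This scale understates the change of low genes. Of the 7 tested genes, 4 were higher in the apex and 1 was lower, against 27.5% higher and 27.2% lower among all genes tested. Because a gene could pass the filter through the apex alone, genes high only there had to differ, and these counts are a description. The gene lower in the apex was arahy.U5Q1QL.1, with a petiole mean 3.05 times that of the apex (log2 difference, apex minus petiole, -1.47, SE 0.0992, adjusted p = 1.13e-08). For arahy.S28ZE3.1 the difference was 0.00 with a 95% confidence interval of -0.22 to 0.23 (adjusted p = 0.981), and for arahy.ZTJV1A.1 it was -0.52 (SE 0.349, adjusted p = 0.229). Without petiole replicate 2, which was listed at 0, the difference of arahy.ZTJV1A.1 became -0.92 with an adjusted p of 0.0246.

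The 4 genes higher in the apex were both knotted-1-like 2 and both knotted-1-like 6 genes. The log2 difference was 2.75 for arahy.F9ETHR.1 (SE 0.0754, adjusted p = 5.48e-13), 2.68 for arahy.V2YWYI.1 (SE 0.217, adjusted p = 9.44e-08) and 2.63 for arahy.B0V7RI.1 (SE 0.196, adjusted p = 3.69e-08). For arahy.EDBH1H.2, listed at 0 in every petiole library, the adjusted p was 3.38e-11 and the size of the fitted difference depends on the value added before the log. Taken as sums, knotted-1-like 1 was 1.94 times as high in the petiole as in the apex (log2 difference, apex minus petiole, -0.91, SE 0.0764, adjusted p = 1.27e-07). The sums of knotted-1-like 2 and 6 were higher in the apex by 3.64 and 3.35 on the log2 scale (adjusted p = 3.60e-14 and 6.04e-13). The sums were formed after the values had been seen. The knotted-1-like 2 and 6 genes reached 1 FPKM only in apex libraries. Their p-values in this comparison, singly and as sums, are therefore a description too. The petiole minus apex difference was larger for summed knotted-1-like 1 than for summed knotted-1-like 2 by 4.55 and than for summed knotted-1-like 6 by 4.26 on the log2 scale, with exact permutation p-values of 0.1, the smallest possible here. Adjusted over the 5 such differences computed, each p stayed at 0.1.

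Knotted-1-like 1 thus made up most of the class I KNOX transcript level of the petiole and a small part of that of the apex. It accounted for 98.6% ± 0.316 of the summed level of the 8 genes in the petiole, 35.7% ± 1.69 in the wild-type apex and 28.9% ± 1.51 in the mutant apex (SD, n = 3 each). The other class I KNOX genes, listed by the product names SBH1, LET6 and homeotic protein knotted-1-like, are 11. With these added, summed class I KNOX stood at 243.4 FPKM in the wild-type apex and 30.1 in the petiole, and the share of knotted-1-like 1 was 5.66% ± 0.328 in the apex and 88.5% ± 0.365 in the petiole. The 11 other genes summed to 2.82 to 3.25 FPKM in the petiole libraries and 197.67 to 208.89 in the wild-type apex libraries. All 11 were higher in the apex in the limma test, against 27.5% of all genes tested. Because a gene could pass the filter through the apices alone, this count is a description. Most of their petiole level came from arahy.00W5AZ.1 (homeotic protein knotted-1-like, chromosome 5, start 103109682), named here after its values were seen, at 1.94 ± 0.233 FPKM in the petiole and 7.97 ± 0.404 in the wild-type apex. The remaining 10 did not exceed a petiole mean of 0.42 FPKM, and SBH1-like arahy.EP4LC1.1 and LET6 arahy.D6DE6U.1 were listed at 0 in all petiole libraries.

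**Figure D3:**
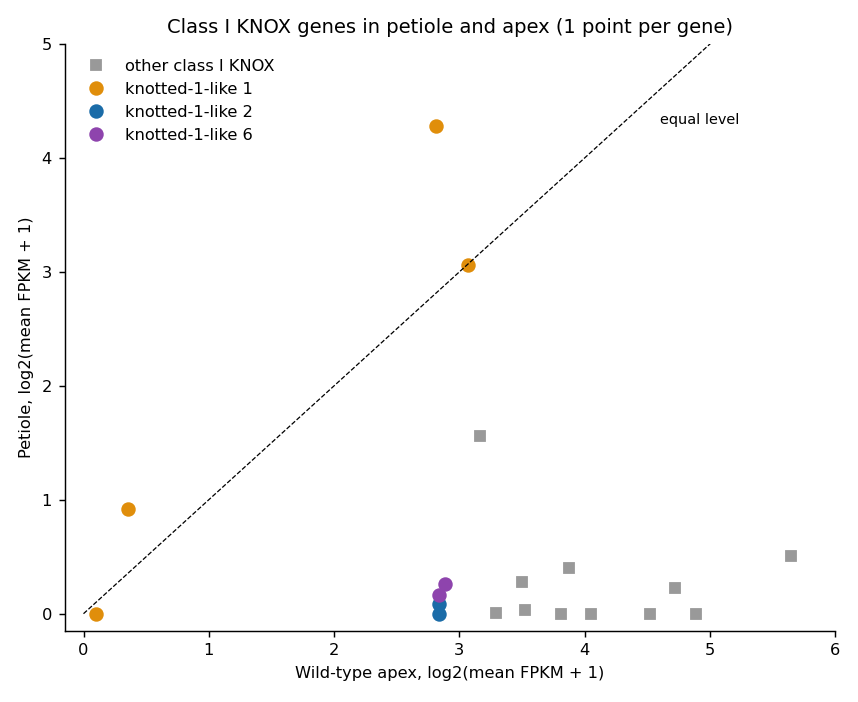
Mean level in the petiole (vertical axis) against mean level in the wild-type apex (horizontal axis), both as log2(mean FPKM + 1), with 1 point for each of the 19 class I KNOX genes. The dashed line marks equal levels. The knotted-1-like 1 genes arahy.U5Q1QL.1 and arahy.S28ZE3.1 lie above and on the line, while the knotted-1-like 2 and 6 genes and the 11 other class I genes (grey) lie far below it.

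The genes higher in the petiole than in the leaflets were all knotted-1-like 1 genes. Of the 7 tested genes 3 were higher in the petiole than in the mean of the leaflets and 0 were lower, against 30.8% higher and 44.1% lower among all genes tested (12004 and 17196 genes, and 15111 and 13656 after quantile normalization). They were arahy.U5Q1QL.1 (log2 difference 4.15, SE 0.0859, adjusted p = 4.73e-15), arahy.S28ZE3.1 (2.92, SE 0.0914, adjusted p = 4.97e-13) and arahy.ZTJV1A.1 (0.79, SE 0.302, adjusted p = 0.0285). The last call was lost without petiole replicate 1 (adjusted p = 0.110) and without petiole replicate 3 (adjusted p = 0.174). All 3 genes reached 1 FPKM only in petiole and apex libraries, with the leaflets near 0. The count and their p-values are therefore a description. The 4 knotted-1-like 2 and 6 genes gave log2 differences of -0.23 to -0.04 that did not pass the test, with adjusted p-values of 0.282 to 0.568. Their 95% confidence intervals together spanned -0.63 to 0.25, at levels of 0 to 26.2 estimated fragments per library. As a sum, knotted-1-like 6 was lower in the petiole, at 0.26 to 0.37 FPKM, than in the leaflets, at 0.35 to 0.77 FPKM (log2 difference -0.31, SE 0.0803, adjusted p = 0.00298). The ranges of petiole and lateral leaflet overlapped, and the terminal leaflet lay above the petiole at 0.66 to 0.75 FPKM. Summed knotted-1-like 2 did not pass (log2 difference -0.13, adjusted p = 0.0911), and it did with a value of 0.1 in place of 1 added before the log (-0.71, adjusted p = 0.00261).

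The wild-type apex stood above the leaflets in 6 of the 7 tested genes and below in 0, against 35.3% higher and 44.3% lower among all genes tested. The 6 log2 differences ran from 2.45 for arahy.V2YWYI.1 (SE 0.188) to 2.92 for arahy.S28ZE3.1 (SE 0.0914), the largest of their adjusted p-values being 1.40e-08. These genes entered the test through tissues in which they were high, and the leaflets were near 0. The count and the p-values are therefore a description. The seventh gene, arahy.ZTJV1A.1, had a log2 difference of 0.27 (adjusted p = 0.415). Terminal and lateral leaflets were compared for position on the leaf, and 0 of the 7 tested genes were called in either direction by limma, against 5.63% higher and 7.45% lower among all genes. At an unadjusted p under 0.05 the count was also 0. The 95% confidence intervals of these differences were narrowest for arahy.F9ETHR.1 (-0.09 to 0.23) and widest for arahy.ZTJV1A.1 (-0.71 to 0.79), and at levels this low a difference was not detectable.

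**Figure D4:**
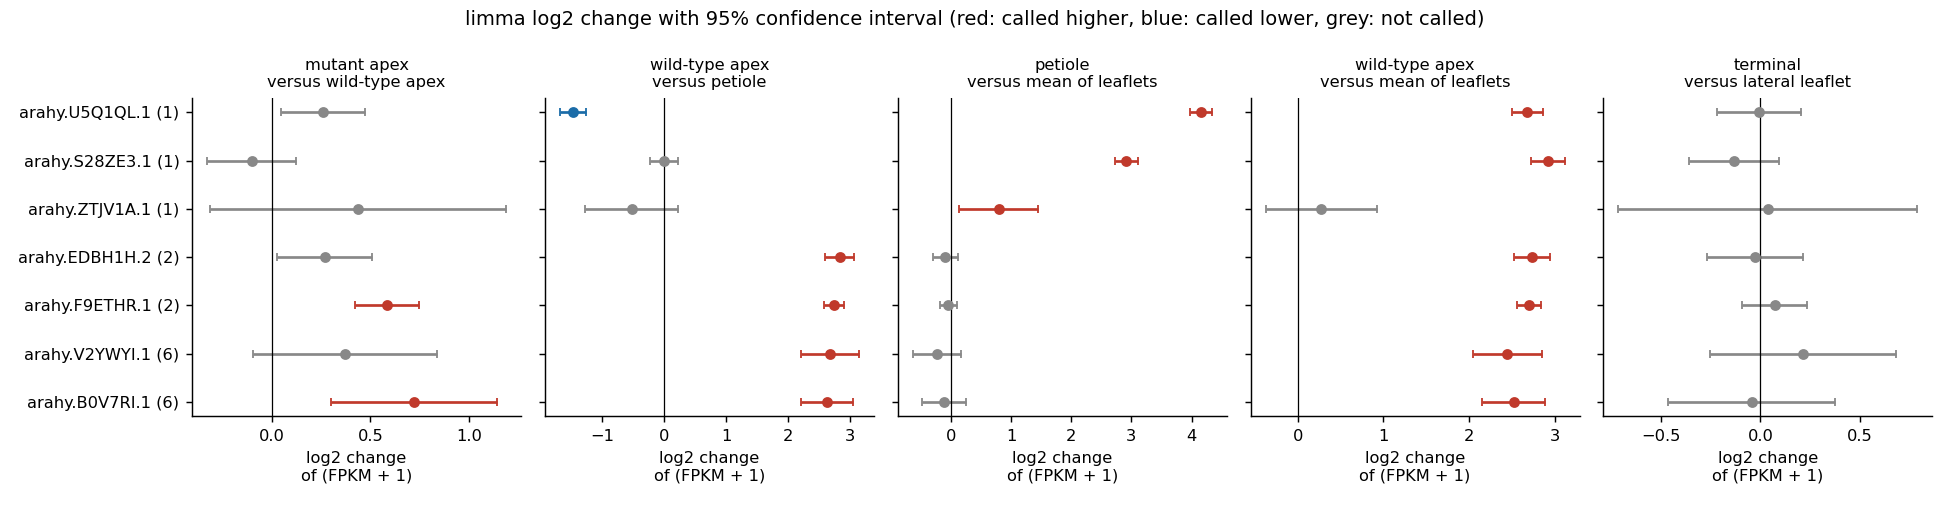
Log2 difference of FPKM + 1 (horizontal axes, scales differ) for the 7 tested genes (the product number is in brackets) in the 5 comparisons, with 95% confidence intervals from limma; positive values are higher in the first-named group. In the comparison of apex with petiole arahy.U5Q1QL.1 lies at -1.47, arahy.S28ZE3.1 at 0.00 and the knotted-1-like 2 and 6 genes between 2.63 and 2.83.

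The comparison of mutant and wild-type apex asks how the genes stand in the tissue that forms leaves when leaflet number is altered. The chromosome 13 copy of knotted-1-like 2 and the chromosome 15 copy of knotted-1-like 6 were higher in the mutant, while their partner copies and the knotted-1-like 1 genes did not pass the test. Of the 7 tested genes 2 were higher in the mutant and 0 lower, against 23.7% higher and 11.9% lower among all genes tested (9243 and 4633 genes, and 6889 and 6112 after quantile normalization). Thus 2 of 7 is near the background share, and the count by itself is no result about these genes. The median log2 difference of the 7 was 0.37, against 0.07 over all genes tested, and 6 of the 7 were positive. At an unadjusted p under 0.05 there were 4 genes.

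The 2 called genes were the B subgenome copies of knotted-1-like 2 and 6. The gene arahy.F9ETHR.1 rose from 6.15 ± 0.280 to 9.70 ± 0.428 FPKM (n = 3 each, ratio of means 1.58, log2 difference 0.58, SE 0.0754, adjusted p = 3.63e-05). The gene arahy.B0V7RI.1 rose from 6.40 ± 0.560 to 11.4 ± 2.61 FPKM (n = 3 each, ratio 1.78, log2 difference 0.72, SE 0.196, adjusted p = 0.0105). The second call was lost without mutant replicate 1, its highest library (log2 difference 0.56, adjusted p = 0.0537). Both calls were lost with 0.1 added before the log (adjusted p = 0.0909 and 0.459), and both returned when only the libraries of the 2 apices were fitted on that scale (adjusted p = 0.000278 and 0.00485).

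The partner copies and arahy.U5Q1QL.1 gave positive differences that did not pass. The log2 difference was 0.27 for arahy.EDBH1H.2 (SE 0.112, adjusted p = 0.0788), 0.37 for arahy.V2YWYI.1 (SE 0.217, adjusted p = 0.205) and 0.26 for arahy.U5Q1QL.1 (SE 0.0992, adjusted p = 0.0564). The first of these passed without wild-type apex replicate 1 (adjusted p = 0.0202) or without mutant replicate 2 (adjusted p = 0.0346). The gene arahy.U5Q1QL.1 passed without wild-type apex replicate 3 (adjusted p = 0.0273), without mutant replicate 1 (adjusted p = 0.0101) and with a filter of 5 FPKM (adjusted p = 0.0476). For arahy.S28ZE3.1 the log2 difference was -0.10 with a 95% confidence interval of -0.33 to 0.12 (adjusted p = 0.489), and for arahy.ZTJV1A.1 it was 0.44 (adjusted p = 0.362). In the authors' deposited table, whose test is not given in the sources used here, each tested gene other than arahy.S28ZE3.1 has a q-value under 0.05 for this comparison. The log2 ratios given there are 1.46 for arahy.ZTJV1A.1 (q = 0.0252), the largest of them, 0.65 for arahy.F9ETHR.1, 0.83 for arahy.B0V7RI.1, 0.44 for arahy.V2YWYI.1, 0.31 for arahy.EDBH1H.2, 0.30 for arahy.U5Q1QL.1 and -0.12 for arahy.S28ZE3.1.

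The copies of each product name were also added up. Summed knotted-1-like 2 read 13.46, 11.25 and 12.21 FPKM in the wild-type apex and 18.46, 16.52 and 16.95 in the mutant apex, without overlap, a ratio of means of 1.41 (log2 difference 0.46, SE 0.0790, adjusted p = 0.000403). Summed knotted-1-like 6 read 11.9, 12.11 and 13.58 FPKM in wild type and 20.7, 18.66 and 19.67 in the mutant, also without overlap, a ratio of 1.57 (log2 difference 0.61, SE 0.0927, adjusted p = 0.000145). Summed knotted-1-like 1 read 13.14, 14.01 and 14.16 FPKM in wild type and 14.64, 15.19 and 15.14 in the mutant, a ratio of 1.09 that did not pass (log2 difference 0.12, 95% confidence interval -0.05 to 0.28, adjusted p = 0.266). Its groups did not overlap either, with 14.16 FPKM the highest in wild type and 14.64 the lowest in the mutant. The call for summed knotted-1-like 2 was lost with 0.1 added before the log (adjusted p = 0.0876).

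Whether the product names differed from each other in this comparison was tested on the differences between sums within each library. Summed knotted-1-like 6 minus summed knotted-1-like 1 was 0.28 to 0.47 on the log2 scale in the mutant libraries and -0.20 to -0.06 in the wild-type libraries. Summed knotted-1-like 2 minus summed knotted-1-like 1 was 0.11 to 0.32 in the mutant and -0.29 to 0.03 in wild type. Neither pair of ranges overlapped, and the exact permutation p was 0.1 for each, the smallest that this design allows. All 3 lists of tissue markers also had higher sums in the mutant apex. Vascular markers (107 listed products) summed to 719.6 to 744.9 FPKM against 433.2 to 438.7 in wild type, with 23 of 59 tested genes higher and 11 lower, where all genes gave 23.7% and 11.9%. Leaf blade markers (54 listed) summed to 8015 to 8279 FPKM against 7188 to 7579, with 33 of 52 tested genes higher and 3 lower. Shoot apex markers (23 listed, SBH1 and LET6 among them) summed to 492.4 to 518.3 FPKM against 426.9 to 433.1, with 10 of 17 tested genes higher and 1 lower. The name search for this list also caught 2 calcyclin-binding protein genes, and the gene called lower was 1 of them. These 2 genes summed to 42.01 to 42.9 FPKM in the mutant and 45.27 to 45.82 in wild type. Listed at 0 in all wild-type and in all mutant apex libraries were 13 and 12 vascular, 2 and 1 leaf blade, and 1 and 2 shoot apex products. The part of these tissues in the differences of the knotted-1-like genes was not tested.

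In the mutant apex, and at low levels in the wild-type petiole and leaflets, the copies of knotted-1-like 6 varied against each other between libraries. The SDs of the knotted-1-like 6 copies in the mutant apex were 1.77 FPKM for the chromosome 5 copy and 2.61 for the chromosome 15 copy, and that of their sum was 1.02. If the copies had varied independently, their sum would have had an SD of 3.16. This was not so in the wild-type apex, where the SDs were 0.745 and 0.560 FPKM for the copies and 0.915 for the sum, against 0.932 for independent copies. In the petiole the SD of the knotted-1-like 6 sum was 0.057 FPKM, against 0.278 for independent copies. It was 0.047 against 0.335 in the terminal leaflet and 0.216 against 0.551 in the lateral leaflet. For the knotted-1-like 2 pair the SD of the sum was 1.11 FPKM in the wild-type apex and 1.02 in the mutant, against 1.05 and 1.09 for independent copies. For the knotted-1-like 1 genes arahy.U5Q1QL.1 and arahy.ZTJV1A.1 the SD of the sum was 0.662 FPKM in the mutant apex, against 1.39 for independent copies. It was 0.917 against 1.47 in the petiole and 0.624 against 0.823 in the wild-type apex. Each SD rests on 3 libraries. The share of the chromosome 5 copy in the pair was 30.5% in mutant replicate 1 and 47.7% and 49.4% in the other 2, and 51.7%, 44.4% and 50.6% in the wild-type apex. In the petiole and leaflets, where the sum was 0.26 to 0.77 FPKM, 4 of 9 libraries had only the chromosome 15 copy above 0, 3 had only the chromosome 5 copy, and 2 had both. For the knotted-1-like 2 pair the share of the chromosome 3 copy was 49.8% ± 3.79 in wild type and 43.9% ± 3.71 in the mutant apex (SD, n = 3 each), and the ranges of 47.4% to 54.2% and 39.6% to 46.3% did not overlap. How fragments that match both copies were assigned is not given in the sources used here, so values of single copies are uncertain, and a difference between copies in response to the mutation cannot be told apart from their assignment.

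**Figure D5:**
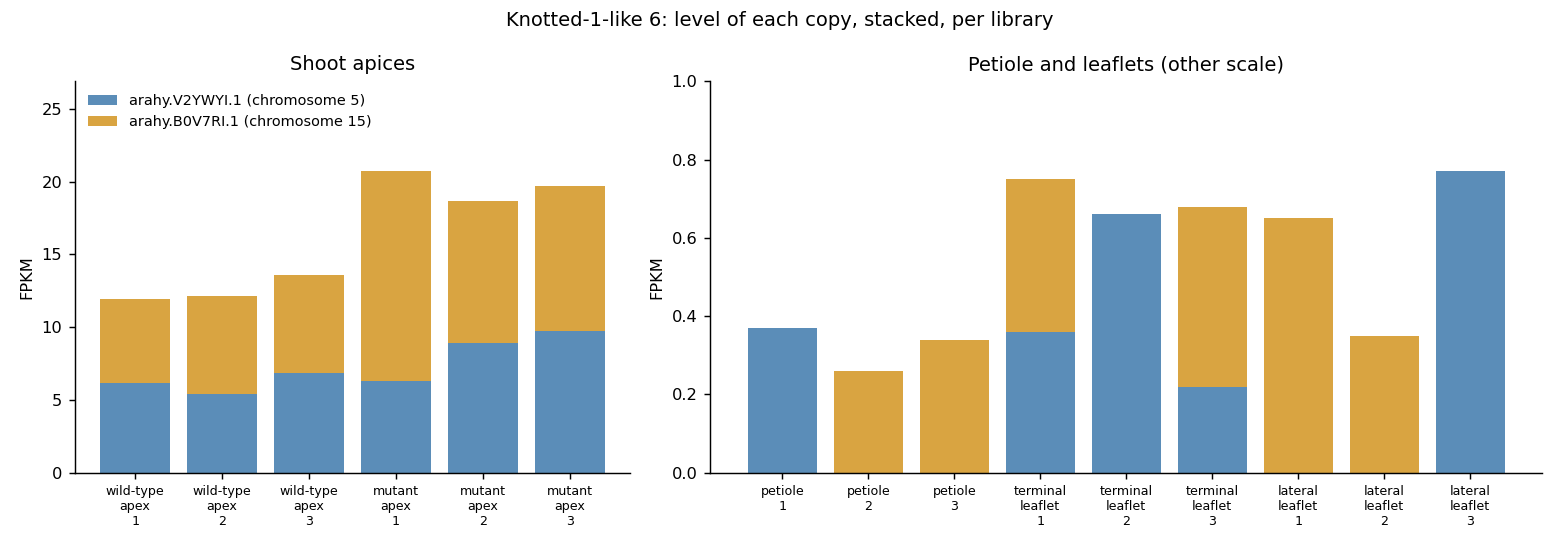
FPKM of the knotted-1-like 6 copies, stacked, per library, in the apices (left) and in the petiole and leaflets (right, other scale). The height of a bar is the sum of both copies. Mutant bars (18.66 to 20.7) are higher than wild-type bars (11.9 to 13.58), and on the right most bars consist of 1 copy only.

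The other genes of the pathway were described by counts from product name lists, to be read against the 23.7% of all tested genes that were higher in the mutant apex and the 11.9% that were lower. Of the 11 other class I KNOX genes 9 were higher in the mutant apex and 0 lower, with a median log2 difference of 0.57. The group as a whole rose from 197.67 to 208.89 FPKM in the wild-type libraries to 301.47 to 306.79 in the mutant libraries, so that knotted-1-like 1 made up 4.21% ± 0.081 of class I KNOX in the mutant apex. The list for class II KNOX genes caught many products that are no homeobox genes. Of its 38 tested genes 8 were higher and 6 lower in the mutant apex. Its 8 homeobox products, picked out after the data were seen, had 0 higher and 4 lower in the mutant apex (median -0.27). All 8 were lower in the petiole than in the leaflets, against 44.1% of all genes tested. Among them arahy.F096Y2.1 (knotted-1-like 4 isoform X1) fell from 3.65 ± 0.416 to 0.977 ± 0.0896 FPKM in the mutant apex, and stood at 1.17 ± 0.159 in the petiole and 11.3 ± 0.763 in the terminal leaflet (n = 3 each).

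The partners and regulators of KNOX proteins moved in both directions. Of the 28 tested BELL homeodomain genes 7 were higher and 6 lower in the mutant apex (median 0.00), the higher ones near the 23.7% of all genes. Among the lower was BEL1-like arahy.L55A0V.2, which fell from 1.58 ± 0.242 to 0.357 ± 0.0723 FPKM. The BELL gene arahy.WUKV82.2 (ATH1-like) rose from 4.17 ± 0.0493 to 6.69 ± 0.571 FPKM. Of the 11 tested OVATE family genes, whose proteins bind TALE homeodomain proteins in Arabidopsis, 0 were higher and 4 lower (median 0.02). The list for KNOX repressors held 4 NPR5 genes, relatives of Arabidopsis BLADE-ON-PETIOLE. Their smallest adjusted p between the apices was 0.0846, for arahy.K4FBU4.1 at 12.8 ± 0.749 FPKM in wild type and 10.04 ± 0.659 in the mutant. All 4 were higher in the wild-type apex than in the petiole, against 27.5% of all genes tested. All 4 were also higher in the petiole than in the leaflets, against 30.8%. This order differs from that of arahy.U5Q1QL.1.

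The hormone genes that KNOX proteins are known to act on were mixed as well. Of the 22 tested gibberellin enzyme genes 8 were higher and 2 lower in the mutant apex (median 0.12), against 23.7% and 11.9% of all genes. Gibberellin 20 oxidase gene arahy.QV02Z8.1, for a late step of gibberellin synthesis, rose from 7.64 ± 0.797 to 11.4 ± 0.259 FPKM. Gibberellin 2-beta-dioxygenase gene arahy.VR90R2.1, which inactivates the hormone, fell from 3.14 ± 0.485 to 1.36 ± 0.307 FPKM and stood at 14.1 ± 1.19 in the petiole. Of the 15 tested cytokinin synthesis genes 4 were higher and 1 lower (median 0.14), near the shares of all genes. The isopentenyltransferase gene arahy.XU6K4M.1, for the first step of cytokinin synthesis, rose from 0.880 ± 0.0600 to 2.49 ± 0.392 FPKM, and LOG8 gene arahy.TW77AW.1, for the last step, from 8.06 ± 0.703 to 13.5 ± 0.639 FPKM (n = 3 each).

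The genes most alike in pattern to the 2 main knotted-1-like 1 genes were ranked by Pearson's r over the 15 libraries on the log2(FPKM + 1) scale, as a description, since the libraries fall into 5 groups. For arahy.S28ZE3.1 the first was arahy.3YCL0F.2 (LIGHT-DEPENDENT SHORT HYPOCOTYLS 4-like, r = 0.998), at 17.8 ± 0.377 FPKM in the wild-type apex, 16.3 ± 0.173 in the petiole and 0.213 ± 0.038 in the terminal leaflet. The next were a subtilisin-like protease gene (arahy.56PS60.1), an aspartyl protease gene (arahy.1L70FA.1), a hydroquinone glucosyltransferase-like gene (arahy.B26H97.1) and a COP1-interacting protein 7-like gene (arahy.FB4L04.1), with r of 0.997 to 0.996. For arahy.U5Q1QL.1 the first was arahy.9QT5JT.1 (peroxidase A2-like, r = 0.997), at 61.1 ± 1.72 FPKM in the wild-type apex and 107.5 ± 2.98 in the petiole. It was followed by the organ-specific protein P4-like genes arahy.4TXR4J.1 and arahy.RC1NFA.1, the BURP domain gene arahy.KA310P.1 and the aldolase gene arahy.FK49XX.1, with r of 0.997 to 0.996. Unlike the knotted-1-like genes, which were near 0 there, several of these kept clear levels in the leaflets, such as 22.8 ± 0.363 FPKM for arahy.9QT5JT.1 in the terminal leaflet.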

How the data were processed

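RNA sequencing values came as 1 table for 15 libraries, 5 groups of 3. The values are FPKM made by the authors, with 2 decimals, per the file headers, for 59878 genes. The table also holds the authors' own pairwise results as log2 ratios and q-values (with the p-values behind them), per the file headers. All library columns occur 2 times, with equal content, and 1 of each was used. Of the 59878 genes, 1622 share chromosome and start with a gene listed before them. These were not removed before testing. No source used here gives the aligner, the quantification, the treatment of fragments that match several genes, or the authors' test. The gene identifiers are those of peanut, although TAIR10 (Arabidopsis) is the build in the submitters' processing notes. Leaflet columns were matched to libraries by tissue, since titles abbreviate them in another way.

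FPKM are not counts, so limma 3.58.1 in R 4.3.3 (trend and robust empirical Bayes) was fitted to log2(FPKM + 1) over all 15 libraries, with 1 mean per group, for the 39031 genes that reached 1 FPKM in at least 3 of them. Adjusted p-values in the text are from limma with Benjamini-Hochberg adjustment over all genes tested. In simulated data 200 of 39031 genes were changed. The comparison of the apices recovered 63% of those changed by a log2 of 0.5 and 88% of those changed by 1. There were 8 false calls. In the real comparison far more genes were called (9243 higher and 4633 lower), so these rates need not hold for it. Sums over the genes of a product name took the place of the single genes in a further fit. Differences between genes were tested by exact permutation (scipy 1.17.1). Depth was estimated from the steps between low FPKM values, of which 51.5% to 58.3% per library came within 0.1 of a whole fragment, so no count test was run. Alternatives were another pseudocount, no filter and a stricter one, TPM rescaling, quantile normalization, a replicate block, fits of the compared groups only and leaving out each library.

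All 8 genes found by product name are accounted for. The named list genes are up to 3 of smallest p between the apices, and the genes of like pattern the 5 of highest r with a product name. The genes and lists were chosen with earlier results of these data known. Of the 8 genes, 2 matched a symbol of a RefSeq gene table of another peanut assembly, from which no coordinates were taken.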

Additional observations from a re-analysis of the deposited data

How the results depend on the processing

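Under the alternatives tried, 150 of the 152 recomputed counts of called genes stayed within 1.5 times the reported count. Many of these counts were 0 and stayed 0, so this share says little about the comparison of the apices. No called gene or sum reversed its direction. With 0.1 in place of 1 added before the log, the count of genes higher in the mutant apex went from 2 to 0. It was 2 again when, as an alternative chosen after that loss was seen, only the compared groups were fitted on that scale. Without petiole replicate 2, the genes lower in the wild-type apex than in the petiole went from 1 to 2. Leaving out each library in turn gave 2 to 3 genes higher in the mutant apex, 1 to 2 lower and 4 higher in the wild-type apex than in the petiole, 2 to 3 higher in the petiole than in the leaflets and 6 higher in the wild-type apex than in the leaflets. Of the 497 recomputed values of single genes, 6 gained and 5 lost a call. Of the 178 of the sums, 2 gained and 1 lost one. TPM rescaling gave 1 of the gains, summed knotted-1-like 2 being lower in the petiole than in the leaflets by a log2 difference of -0.20 (adjusted p = 0.0428 from limma).

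Libraries of the same number did not deviate together. Over 30 such pairs the correlation of deviations from the group means was -0.06 to 0.05. Whether equal numbers stand for the same plants is not stated in the labels, and these correlations cannot settle it. With the number as a replicate block the counts of called genes were 2 higher in the mutant apex, 4 higher and 1 lower in the wild-type apex than in the petiole, 3 higher in the petiole and 6 higher in the wild-type apex than in the leaflets, and 0 between the leaflets. Differences among the leaflets, and between petiole and leaflets for knotted-1-like 2 and 6, are limited by depth, since these levels stand for few fragments. The depth is an estimate, and intervals cover the spread between libraries and not the assignment of fragments between near-identical copies.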

Other observations

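The 2 genes for AS1, the MYB protein that represses class I KNOX genes in Arabidopsis leaves, were looked up after the data had been seen, since the list for KNOX repressors did not catch their product name. They were at far higher levels than the knotted-1-like genes in every group. The gene arahy.Z9PFJZ.1 stood at 84.3 ± 3.79 FPKM in the wild-type apex, 94.1 ± 3.57 in the mutant apex, 78.1 ± 0.965 in the petiole and 42.2 ± 1.07 in the terminal leaflet (n = 3 each, adjusted p = 0.0130 from limma between the apices). The gene arahy.2DN1X0.1 stood at 56.8 ± 1.75, 60.3 ± 3.43 and 45.5 ± 0.275 FPKM in the wild-type apex, the mutant apex and the petiole (adjusted p = 0.199 from limma between the apices).

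The genes next to the knotted-1-like genes were compared between the apices as a description. Around each of the 8 genes 20 tested genes were taken, the nearest ones in equal number from each side. They had median log2 differences, mutant minus wild type, of 0.04 to 0.15. Of each 20, 2 to 8 were higher and 0 to 2 lower, against 23.7% and 11.9% of all genes tested. The 20 genes spanned 0.38 to 14.6 Mb of chromosome. Around arahy.B0V7RI.1, whose own log2 difference was 0.72, the median was 0.04, and around arahy.F9ETHR.1, whose own was 0.58, it was 0.10.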
